A study of Homo sapiens with 4 samples.

Results

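The aldo-keto reductases and the detoxification enzymes driven by NRF2 were examined in A549 cells depleted of the long noncoding RNA USP2-AS1. The 10 genes, chosen by symbol, were AKR1B1, AKR1B10, AKR1C1, AKR1C2, AKR1C3, NQO1, ALDH3A1, ALDH1A1, CBR1 and HMOX1. Of these, 5 were among the 6828 genes of the table (AKR1B10, ALDH1A1, ALDH3A1, NQO1 and HMOX1), and the other 5 (AKR1B1, AKR1C1, AKR1C2, AKR1C3 and CBR1) were not analysed here. A549 is a human lung adenocarcinoma cell line. Cells were infected with lentiviruses carrying a control shRNA (shctrl) or an shRNA against USP2-AS1 (shUSP2-AS1), and RNA was taken 72 h later, in 2 libraries per group. Both groups therefore went through lentiviral infection, and the study's methods describe puromycin selection of infected cells. The comparison rests on 1 cell line, and which of the USP2-AS1 shRNAs was sequenced is not given in the sources used here. It asks which of these enzymes changed in mRNA level when USP2-AS1 was depleted.

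NRF2 is a transcription factor that the adaptor protein KEAP1 marks for degradation. When oxidants or electrophiles modify KEAP1, NRF2 accumulates, pairs with small MAF proteins and binds antioxidant response elements near genes for NADPH-dependent reductases, aldehyde dehydrogenases, glutathione and thioredoxin enzymes, and heme oxygenase. BACH1, a repressor sensitive to heme, competes for the same elements, and HMOX1 is its best known target. A549 cells carry a KEAP1 mutation and are known for high activity of this pathway.

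The shRNA target sequences are shown because they define the perturbation. Matched to hg38, both USP2-AS1 targets lay on the plus strand of chromosome 11, in exon 4 of the 4 exons of the noncoding transcript ENST00000498979, at chr11:119498750-119498770 for shUSP2-AS1#1 and chr11:119499384-119499404 for shUSP2-AS1#2. The control sequence had 0 exact matches on that chromosome.
shUSP2-AS1#1: taatctcagcgagatgaagag
shUSP2-AS1#2: gcactcagttgtacttcttta
sh-control: cctaaggttaagtcgccctcg

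The values are normalized read counts, which are reads per gene divided by a size factor of the library. The libraries held 10772788 to 14120472 reads on the listed genes. USP2-AS1 itself had 24 and 22 reads in control cells and only 2 and 7 after knockdown, a log2 fold change of -2.39 (SE 0.56, limma adjusted p = 0.000597). This value was -1.78 without shUSP2-AS1 replicate 1, -2.99 without shUSP2-AS1 replicate 2 and -1.27 with a pseudocount of 10, and a test against a 2-fold change gave an adjusted p of 0.0723. Every row of the table had passed the authors' own adjusted p threshold of 0.05. Genes that did not change are therefore largely missing, and passing a test or separating the groups was close to universal. The limma variances were moderated over these selected genes, so the standard errors, intervals and p-values below may be too small. Of 6812 genes tested with limma, 6811 (100%) had a Benjamini-Hochberg adjusted p below 0.05, 49.4% of the genes tested being lower and 50.6% higher, and the groups did not overlap in 6811 (100%). A gene is termed called below when it also changed by at least 2-fold. By that rule 2020 genes (29.7%) were called, 922 lower (13.5%) and 1098 higher (16.1%). The epithelial keratins KRT7, KRT8, KRT18 and KRT19 (4 of 6 epithelial markers had a row) summed to 168132 and 179244 normalized reads in shctrl and to 106336 and 112823 in shUSP2-AS1. KRT7 (log2 fold change -0.49), KRT8 (-0.77) and KRT18 (-1.05) were lower while KRT19 (0.75) was higher, and KRT7 and KRT8 made up most of the sum. Of the alveolar type II, endothelial and leukocyte markers, 0 of 4, 0 of 3 and 0 of 4 had a row. Of the fibroblast markers, 2 of 5 did (COL1A1 and LUM), with sums of 263 and 295 in shctrl and 555 and 634 in shUSP2-AS1. The part of these markers in the results below was not tested.

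Among the 5 detoxification genes, HMOX1 and ALDH3A1 were lower in shUSP2-AS1 cells, while ALDH1A1 and AKR1B10 were higher. NQO1 was higher by the smallest margin, and its direction depended on the scaling. HMOX1 was the 1 gene called, at a limma adjusted p below 0.05 and at least 2-fold lower, beside 13.5% of all genes tested called lower. The count called higher was 0 of 5 by limma, edgeR and DESeq2, beside 16.1% of all genes. At an unadjusted limma p under 0.05, 3 of the 5 were higher and 2 lower. Of all genes tested, 50.6% were higher and 49.4% lower at an adjusted p below 0.05. The median log2 fold change of the 5 genes was 0.11, against 0.19 for all genes tested. The latter median lies at the edge of an empty band around 0 that the selection of rows leaves, and it was -0.16 when at least 10 reads were required in every library. In bulk RNA, fewer cells that express a gene and less of its RNA per cell cannot be told apart.

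**Figure D1:**
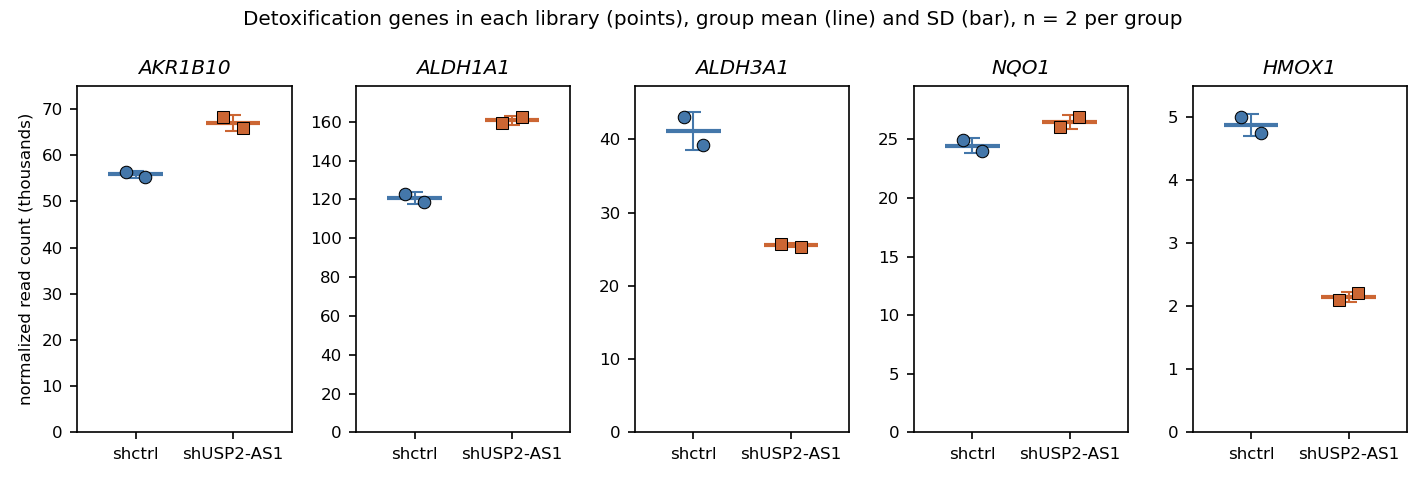
Normalized read counts (vertical axis, linear from 0, with a separate scale for each gene) of AKR1B10, ALDH1A1, ALDH3A1, NQO1 and HMOX1 in the 2 shctrl (blue) and 2 shUSP2-AS1 (orange) libraries. Points are libraries, lines group means and bars SD. The groups are separate for every gene shown, as they are for 6811 of the 6812 genes tested. The mean fell by 55.9% for HMOX1 and was 8.14% higher for NQO1.

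AKR1B10 reduces aldehydes and retinal with NADPH and was the 1 aldo-keto reductase of the chosen genes with a row (ENSG00000198074, chr7:134527567-134541412, plus strand). It gave 56299 and 55365 normalized reads in shctrl, against 68165 and 65790 in shUSP2-AS1. Both knockdown libraries lay above both controls, and the groups did not overlap in 6811 of the 6812 genes tested. The group means were 55832 ± 661 and 66977 ± 1679 (SD, n = 2 each), a 1.20-fold difference with a log2 fold change of 0.26 (SE 0.05, 95% CI 0.15 to 0.38, limma adjusted p = 0.000188). Of the genes tested, 52.0% had a lower log2 fold change. The value of AKR1B10 was 0.14 with scaling by the median of ratios over the listed genes (RLE). Per kb of gene length, AKR1B10 ranked 11th among the listed genes in control cells, with 31490 normalized reads per kb, and reached 37776 after knockdown. Part of its sequence is shared with its neighbour AKR1B15. Of the 50-base stretches of the canonical AKR1B10 transcript, 18% occur in a transcript of another gene, 11.3% in AKR1B15, and at 100 bases the shared portion was 1.97%.

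The aldehyde dehydrogenases split in direction. ALDH1A1, which oxidises retinal to retinoic acid and is widely used as a marker of stem-like tumour cells, was the most abundant of the 5 genes (ENSG00000165092, chr9:72900671-73080442, minus strand). It gave 123010 and 118665 normalized reads in shctrl and 159180 and 162179 in shUSP2-AS1. The means of 120838 ± 3073 and 160680 ± 2121 differed 1.33-fold, with a log2 fold change of 0.41 (SE 0.06, 95% CI 0.28 to 0.54, limma adjusted p = 6.28e-06). In control cells it ranked 4th among the listed genes by normalized reads and 7th per kb, and its portion of all normalized reads on listed genes went from 1.02% to 1.30%. It shared 0 stretches of 50 bases with other transcripts.

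ALDH3A1, which oxidises aromatic and lipid-derived aldehydes, was lower after knockdown (ENSG00000108602, chr17:19737984-19748943, minus strand). It gave 42999 and 39285 normalized reads in shctrl and 25778 and 25375 in shUSP2-AS1. The controls differed from each other by far more than the knockdown libraries did, with means of 41142 ± 2626 and 25577 ± 286. The mean fell by 37.8%, with a log2 fold change of -0.68 (SE 0.05, 95% CI -0.80 to -0.57, limma adjusted p = 2.51e-09). Its level per kb went from 10609 to 6595 normalized reads.

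Within a library, the ratio of 2 genes does not depend on the size factor. The ratio of ALDH1A1 to ALDH3A1 was 2.86 and 3.02 in control cells, against 6.17 and 6.39 after knockdown, a 2.14-fold rise. The ratio of AKR1B10 to ALDH3A1 went from 1.31 and 1.41 to 2.64 and 2.59. With 2 libraries against 2, the smallest two-sided p an exact permutation test can give is 0.333, so these ratios are given without a test.

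The antisense long noncoding RNA AC005722.4 overlaps ALDH3A1 by 559 bases and was looked up after the values were seen. It gave 121 and 122 normalized reads in shctrl and 30.5 and 35.2 after knockdown (log2 fold change -1.86, SE 0.22, limma adjusted p = 3.44e-07). Whether reads were counted by strand is not given in the sources used here, and 3.33% of the 50-base stretches of ALDH3A1 occur in this RNA, so reads of the pair may not be fully separated.

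NQO1, a flavoenzyme that reduces quinones to hydroquinones, is widely used as a readout of NRF2 activity (ENSG00000181019, chr16:69706996-69726668, minus strand). It gave 24920 and 23989 normalized reads in shctrl and 26025 and 26867 in shUSP2-AS1. The groups did not overlap, as in 6811 of the 6812 genes tested. The gap between them was of the size of the spread within them (24455 ± 658 and 26446 ± 596). The log2 fold change was 0.11 (SE 0.05, 95% CI 0.01 to 0.22, limma adjusted p = 0.0367), and only 2 of the 6812 genes tested had a smaller absolute change. Scaling by RLE, the median of ratios over the listed genes, put it at -0.005 (adjusted p = 0.914), and the adjusted p was 0.0579 without shctrl replicate 1, 0.249 without shctrl replicate 2 and 0.17 without shUSP2-AS1 replicate 2. A change in NQO1 was thus not separable from the choice of scaling. Of its 50-base stretches, 21% occur in other transcripts, 19.8% in the antisense RNA ENSG00000261602.

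HMOX1 encodes heme oxygenase, which cleaves heme to biliverdin, carbon monoxide and iron (ENSG00000100292, chr22:35380361-35394207, plus strand). It gave 4999 and 4754 normalized reads in shctrl and 2096 and 2210 in shUSP2-AS1. Each knockdown library held less than either control by a margin many times the spread within the groups (4877 ± 173 and 2153 ± 80.7). The mean fell by 55.9%, with a log2 fold change of -1.18 (SE 0.05, 95% CI -1.29 to -1.07, limma adjusted p = 1.59e-12), and 10.2% of the genes tested had a lower value. A test against a 2-fold change gave an adjusted p of 0.0142, and limma without its mean-variance trend gave 0.000298 for any change. HMOX1 was the least abundant of the 5 genes per kb, at 2121 normalized reads per kb in control cells and 936 after knockdown, and shared 0 stretches of 50 bases with other transcripts.

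**Figure D2:**
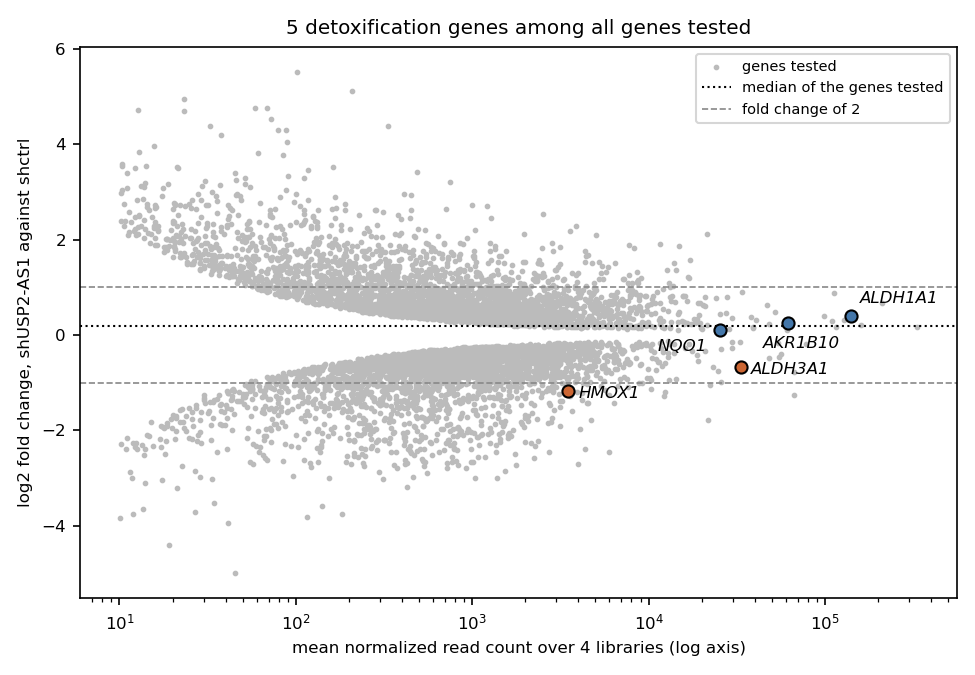
Log2 fold change of shUSP2-AS1 against shctrl (vertical axis) by mean normalized read count over 4 libraries (log axis) for the 6812 genes tested (grey), with the 5 detoxification genes marked in blue (higher) or orange (lower). Few genes lie near 0 because the table holds genes selected on an adjusted p; HMOX1 is past the dashed 2-fold line, and NQO1 (0.11, or -0.005 with RLE scaling) lies within the empty band.

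**Figure D3:**
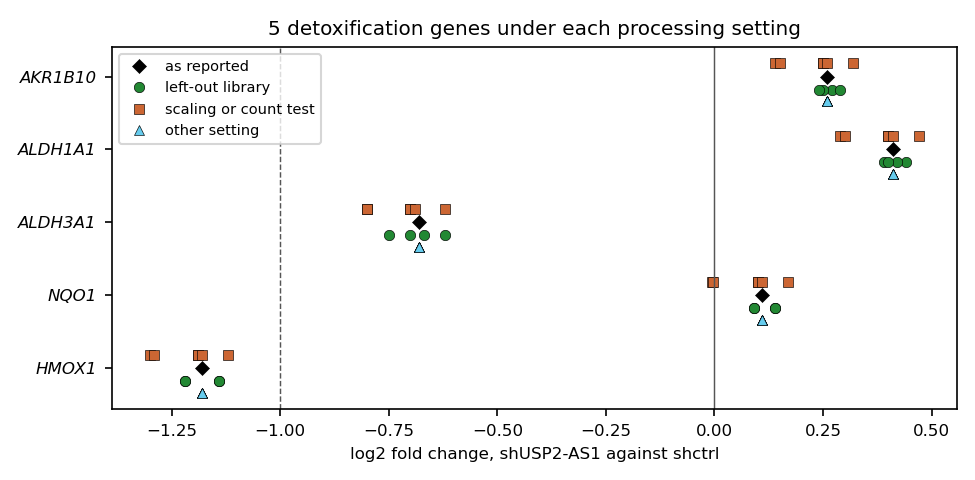
Log2 fold change (horizontal axis) of the 5 genes as reported (diamond), with each library left out (circles), with other scalings or count tests (squares) and with other settings (triangles). The solid line marks no change and the dashed line a 2-fold fall; NQO1 reaches -0.005 with RLE scaling and -0.0024 with DESeq2, while the other 4 genes keep their direction under all 18 alternatives.

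The order of the 5 levels per kb in control cells was ALDH1A1 (42549), AKR1B10 (31490), ALDH3A1 (10609), NQO1 (8231) and HMOX1 (2121 normalized reads per kb). After knockdown it was ALDH1A1 (56577), AKR1B10 (37776), NQO1 (8901), ALDH3A1 (6595) and HMOX1 (936), so that NQO1 and ALDH3A1 exchanged places. The gene lengths used were 3878 bases for ALDH3A1 and 2971 for NQO1, whereas their canonical transcripts have 1639 and 2521 bases. The exchange of places therefore depends on the length used.

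The wider pathway was described with 10 lists of 100 symbols, the 10 chosen genes included, of which 56 had a row. Of these, 4 were called lower and 8 higher (limma adjusted p below 0.05 and at least 2-fold), which is 7.14% and 14.3% of the 56 beside 13.5% and 16.1% of all genes tested. Without the fold threshold 11 were lower and 45 higher, which is 19.6% and 80.4% beside 49.4% and 50.6% of all genes tested. These shares of all genes also stand beside the direction counts of each list below. The median log2 fold change was 0.43 against 0.19 for all genes. RLE scaling, which lowered the median of all genes by 0.12 on the log2 scale, gave 5 called lower and 5 called higher of the 56, beside 1143 and 929 of 6807 genes tested. Without the fold threshold 11 were then lower and 41 higher, beside 3362 and 3301 of the 6807 genes. The list median was 0.31, against 0.07 for all genes.

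Of 14 aldo-keto reductase symbols 3 had a row, and all 3 were higher under each scaling. AKR1B15, a close relative of AKR1B10 that lies next to it, gave 763 and 645 normalized reads in shctrl and 1584 and 1393 after knockdown (log2 fold change 1.08, SE 0.08, limma adjusted p = 1.86e-09). This call was lost with RLE scaling (0.96), with DESeq2 and its own size factors (0.96), in a test against a 2-fold change (adjusted p = 0.713), without shctrl replicate 2 (0.96) and without shUSP2-AS1 replicate 1 (0.99). The ratio of AKR1B15 to AKR1B10 was 0.0136 and 0.0117 in shctrl and 0.0232 and 0.0212 in shUSP2-AS1, a 1.76-fold rise. AKR1C4, a hepatic hydroxysteroid dehydrogenase, was counted low, at 36.7 and 20.9 against 84.1 and 58.1 normalized reads (log2 fold change 1.30, SE 0.30, adjusted p = 0.000504, or 0.91 and not called without shctrl replicate 2, and 0.671 for the adjusted p against a 2-fold change). Of its 50-base stretches 17.3% occur in other transcripts, most often in AKR1C3, so its reads are uncertain.

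Among the aldehyde dehydrogenases 11 of 19 symbols had a row, of which 8 were higher and 3 lower, with a median log2 fold change of 0.52. The called gene was ALDH1L1, the cytosolic 10-formyltetrahydrofolate dehydrogenase, with 13.5 and 26.4 normalized reads in shctrl and 82.0 and 82.8 in shUSP2-AS1 (2.06, SE 0.31, limma adjusted p = 6.93e-06). Its log2 fold change was 1.61 without shctrl replicate 1 and 2.52 without shctrl replicate 2. ALDH2, the mitochondrial acetaldehyde dehydrogenase, had a log2 fold change of 0.52 (SE 0.06), ALDH3B1 of 0.61 (SE 0.05), ALDH6A1 of 0.75 (SE 0.14), ALDH1L2 of 0.62 (SE 0.12) and ALDH4A1, of proline breakdown, of 0.57 (SE 0.08). ALDH3A2, the fatty aldehyde dehydrogenase and closest relative of ALDH3A1 among these genes, moved the other way from it, at 5444 and 5479 against 6465 and 6336 normalized reads (0.23, SE 0.05, adjusted p = 0.000212). The rise of ALDH3A2 was 0.11 by limma with RLE scaling (adjusted p = 0.0314) and 0.11 by DESeq2 (adjusted p = 0.0503). Lower alongside ALDH3A1 were ALDH16A1 (-0.56, SE 0.08) and ALDH9A1 (-0.89, SE 0.08), which acts in carnitine synthesis. ALDH9A1 crossed the 2-fold line with RLE scaling, at -1.01.

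The carbonyl and quinone reductases, with 3 of 8 symbols having a row, had the widest range of the lists. DHRS2 gave 117 and 115 normalized reads in shctrl and 23.1 and 34.3 in shUSP2-AS1 (log2 fold change -2.00, SE 0.24, limma adjusted p = 5.58e-07). DHRS4, a peroxisomal carbonyl reductase, gave 10.6 and 7.69 against 63.1 and 126 (3.17, SE 0.36, adjusted p = 2.62e-07). The DHRS4 libraries differed within the knockdown group, and 64.6% of its 50-base stretches occur in other transcripts, mostly DHRS4L2, so its reads are uncertain. NQO1 stood between them.

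Heme and iron genes other than HMOX1 were higher. BLVRB, a biliverdin reductase, gave 4233 and 4105 normalized reads in shctrl and 5885 and 6157 in shUSP2-AS1 (log2 fold change 0.53, SE 0.05, limma adjusted p = 2.37e-08). The ratio of BLVRB to HMOX1 was 0.847 and 0.863 in shctrl and 2.81 and 2.79 in shUSP2-AS1, a 3.27-fold rise. FTH1, the ferritin heavy chain that stores iron, had a log2 fold change of 0.31 (SE 0.05), with 80.5% of its 50-base stretches shared with other transcripts. In all, 5 of 9 symbols had a row, 1 lower and 4 higher. With RLE scaling and with DESeq2 the 4 kept their direction, but only 2 of them had an adjusted p below 0.05.

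In the glutathione and thioredoxin list TXNRD1 was the gene called. TXNRD1, the cytosolic thioredoxin reductase, gave 33620 and 33354 normalized reads in shctrl and 9570 and 9774 in shUSP2-AS1. The mean fell by 71.1%, with a log2 fold change of -1.79 (SE 0.05, limma adjusted p = 3.68e-15), a larger fall than that of HMOX1. GCLC, the catalytic subunit of the enzyme that starts glutathione synthesis, was lower as well (-0.58, SE 0.05, adjusted p = 1.79e-08), whereas GPX2, a glutathione peroxidase, was higher (0.72, SE 0.07, adjusted p = 3.86e-08). Of 9 symbols 8 had a row, 2 lower and 6 higher.

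The glutathione S-transferases moved in 1 direction, with 6 of 12 symbols having a row and all 6 higher under each scaling (log2 fold changes 0.48 to 0.95, median 0.62). Of all genes tested, 50.6% were higher by limma. MGST1, a microsomal enzyme, had the largest value (0.95, SE 0.06) and was called without shctrl replicate 1 (1.04), GSTK1 gave 0.65 (SE 0.06) and MGST3 gave 0.48 (SE 0.07).

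The NADPH supply enzymes were divided, with 3 of 6 lower and 3 higher. PGD of the oxidative pentose phosphate pathway was lower (-0.41, SE 0.05), while IDH1 (0.40, SE 0.05) and ME1 (0.41, SE 0.06), which make NADPH from isocitrate and malate, were higher. The list median of 0.11 became -0.0038 with RLE scaling.

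For conjugation and export 8 of 10 symbols had a row and all 8 were higher under each scaling, with a median of 0.82. By limma, 50.6% of all genes tested were higher, and the median of all genes was 0.19. The export pumps ABCC2 and ABCC3, which carry glutathione and glucuronide conjugates, both had a log2 fold change of 0.82 (SE 0.05), and ABCC5 had 1.05 (SE 0.08) but 0.92 without shctrl replicate 1 and 0.93 with RLE scaling and with DESeq2, where it was not called. UGT1A1 (1.12, SE 0.25) and UGT1A6 (1.84, SE 0.31), glucuronosyltransferases named after their values were seen, were also called. The call of UGT1A1 was lost with a pseudocount of 10 (0.94), and tests against a 2-fold change gave UGT1A1, UGT1A6 and ABCC5 adjusted p values of 1, 0.0513 and 1. The UGT1A genes overlap at 1 locus, and UGT1A1 and UGT1A6 share 62% and 74.5% of their 50-base stretches with other transcripts, so reads cannot be assigned to either with confidence.

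Of the 9 regulators 3 had a row, and NRF2 (NFE2L2) and KEAP1 were not among them and were not analysed here. BACH1, the repressor of HMOX1, gave 425 and 441 normalized reads in shctrl and 720 and 671 in shUSP2-AS1 (log2 fold change 0.68, SE 0.08, limma adjusted p = 7.19e-07). The small MAF genes went in opposite directions, MAFK higher at 1949 and 2094 against 2605 and 2748 (0.41, SE 0.06, adjusted p = 3.88e-06) and MAFF lower at 107 and 122 against 47.3 and 51.9 (-1.19, SE 0.20, adjusted p = 2.49e-05, or 0.723 against a 2-fold change). Of the 4 other NRF2 targets 3 had a row. CYP4F11, a fatty acid hydroxylase, had a log2 fold change of 1.04 (SE 0.07), with 0.96 and no call without shctrl replicate 1 0.92 and no call with RLE scaling, 0.93 and no call with DESeq2, and an adjusted p of 1 against a 2-fold change. TRIM16L gave 0.39 (SE 0.05) and OSGIN1 gave 0.28 (SE 0.05).

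**Figure D4:**
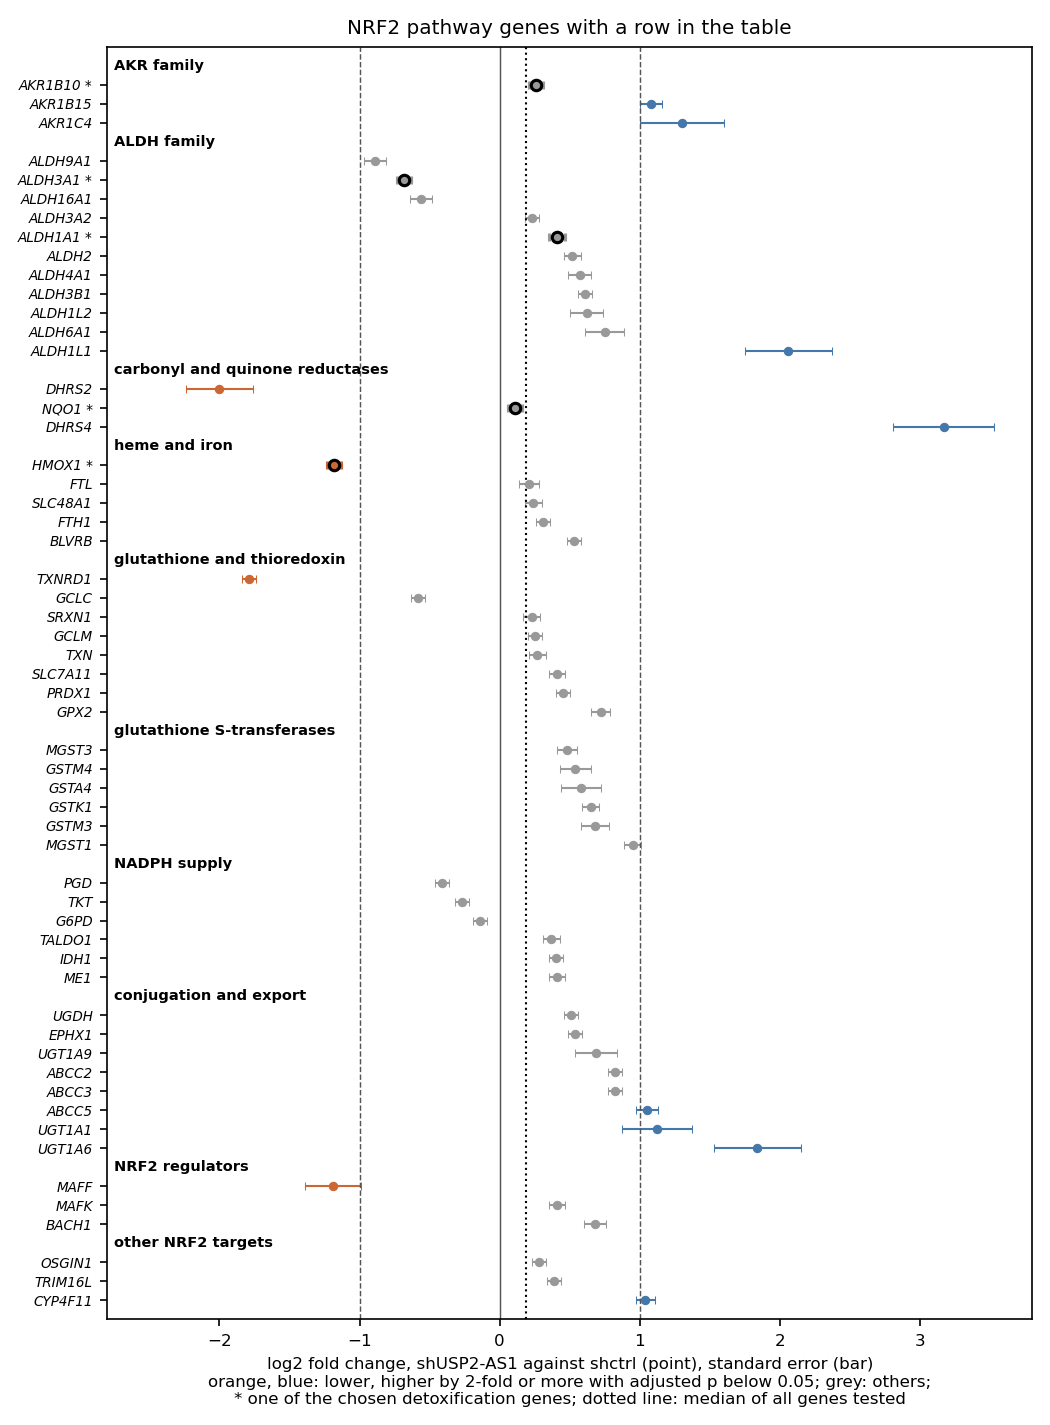
Log2 fold change of shUSP2-AS1 against shctrl (points) with its standard error (bars) for the 56 pathway genes with a row, grouped by list, with the chosen genes starred, called genes in blue (higher) or orange (lower) and the median of all genes tested dotted. HMOX1 (-1.18) and TXNRD1 (-1.79) stand to the left of lists whose other genes mostly lie to the right, and the medians of the quinone reductase and NADPH lists fall just below 0 with RLE scaling.

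Promoter sequence was searched for the core of the antioxidant response element, TGACNNNGC, on both strands of RefSeq windows (GRCh38.p14) from 250 bases before to 50 after each start. It occurred in 4687 of 35116 windows (13.3%). Of the 10 chosen genes 7 were matched to 9 windows, and 1 window, that of CBR1, held it. AKR1B10, ALDH3A1 and HMOX1 were not matched, so only NQO1 and ALDH1A1 had both a window and a value, and neither window held these letters. Sequence outside these windows of 300 bases was not searched, so the search cannot show that a gene lacks the element. The same letters followed by an A occurred in 3.18% of windows and again in that of CBR1.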

How the data were processed

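RNA-seq was performed on 4 libraries, 2 per group. The submitters' processing notes name HISAT2 (2.0.5), featureCounts (1.5.0-p3), DESeq2 (1.20.0) and hg38. The authors deposited a normalized read count signal per gene and library, together with the fold changes and p-values of their own comparison, which were not used. Column names were matched to groups by their labels, with scr taken as shctrl and sh216 as shUSP2-AS1.

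Dividing by the value of 1 read (0.880 to 1.10) gave whole reads for 100% of values (tolerance 0.01). A limma fit (3.58.1, eBayes with trend) was made to log2(value + 1) after leaving out 16 genes whose mean was under 10, so that 6812 were tested. edgeR (4.0.16) and DESeq2 (1.42.0) on recovered reads, other scalings, pseudocounts and filters, a replicate block and left-out libraries were alternatives. The methods were tested on simulated reads in which most genes did not change and no genes were selected by a test. Nearly all genes analysed here had passed such a test, so the simulation does not show how the methods perform on them. Fold changes are on the log2(value + 1) scale.

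The chosen genes and lists were selected with earlier results of these data known. Named were the chosen genes, every listed gene of the AKR, ALDH, reductase and regulator lists, the 3 genes of lowest p in each other list, and USP2-AS1. UGT1A1, UGT1A6 and ABCF2 were added after their values were seen. The 42 named genes counted below include them. Shared stretches were counted over GENCODE 44 canonical transcripts. Replicates are described by the study as biological.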

Additional observations from a re-analysis of the deposited data

How the results depend on the processing

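HMOX1, ALDH3A1, ALDH1A1 and AKR1B10 kept their direction under the 18 alternatives, with log2 fold changes of -1.30 to -1.12, -0.80 to -0.62, 0.29 to 0.47 and 0.14 to 0.32. HMOX1 passed the adjusted p in all 18 and the others in 17, the exception being limma's test against a 2-fold change. Passing was near universal, because the rows were selected on a p-value. As reported, 6811 of 6812 genes passed. With DESeq2, 6529 of 6812 had an unadjusted p below 0.05, the lowest count outside the 2-fold test. NQO1 passed in 9 of 18 and reversed with RLE scaling (-0.005) and DESeq2 (-0.0024), which both lowered the median of all genes by 0.12. Over 42 named genes, 722 of 754 values under alternatives kept direction and side of the threshold, 20 lost the call, 10 gained it and 2 reversed. With no fold threshold, 3362 genes were lower and 3449 higher, 2 and 3 among the chosen genes and 11 and 45 in the pathway lists. The test against a 2-fold change left 523 lower and 541 higher, with 2 higher in the lists. RLE and DESeq2 each called 5 list genes higher, against 8. The portion of calls that were lower was 45.6%, 55.2% with RLE and 54.8% with DESeq2. The replicate numbers did not pair the libraries (correlation of replicate differences -0.04 over 6812 genes). With the replicate block, 922 genes were called lower and 1098 higher, as without it, HMOX1 remained the 1 chosen gene called, and the adjusted p of NQO1 was 0.129. Adjusting over 20000 tests gave NQO1 an adjusted p of 0.108, and limma without its mean-variance trend gave 0.131. The AKR1C read ratios were not run, since AKR1C4 was the 1 AKR1C gene with a row, and dividing reads by gene length changes no difference of ratios by construction. Counting shared stretches at 100 in place of 50 bases was added after seeing the data. Depth limits AKR1C4, ALDH1L1, DHRS4, UGT1A1, UGT1A6, LUM and USP2-AS1, among others, with few reads in at least 1 group.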

Other observations

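Other enzyme families of drug and lipid metabolism were grouped by symbol prefix after the data had been seen, so their counts are descriptions. Genes of the pathway lists are counted again where they share a prefix, among them CYP4F11, ABCC2, ABCC3 and ABCC5. The calls of CYP4F11 and ABCC5 were lost with RLE scaling and with DESeq2. Counts by prefix were not made under other scalings. Of 13 cytochrome P450 symbols tested, 9 were called higher and 1 lower (limma adjusted p below 0.05 and at least 2-fold), beside 16.1% higher and 13.5% lower of all genes tested, with a median log2 fold change of 1.15 against 0.19 for all genes tested. CYP1B1, which hydroxylates oestrogens and polycyclic hydrocarbons, gave 1052 and 1043 normalized reads in shctrl and 2411 and 2236 in shUSP2-AS1 (1.15, SE 0.06). The gene called lower was CYP51A1, the demethylase of sterol synthesis, at 208 and 200 against 82.0 and 63.4 (-1.49, SE 0.17). CYP24A1, which inactivates vitamin D, was abundant and changed little, at 15983 and 17566 against 20543 and 19486 (0.26, SE 0.05).

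Of 20 symbols of the ABC transporter family, 0 were called lower by limma, beside 13.5% of all genes tested. Without a call 3 were lower, beside 49.4% of all genes tested lower at an adjusted p below 0.05. By limma 9 were called higher, beside 16.1% of all genes tested. The cholesterol exporters ABCA1 (483 and 564 against 2147 and 1881 normalized reads, 1.94, SE 0.08) and ABCG1 (32.9 and 22.0 against 131 and 103, 2.07, SE 0.25) were among them, as was the lung surfactant lipid transporter ABCA3 (1273 and 1357 against 4610 and 4311, 1.76, SE 0.06). The 3 lower genes were ABCE1 (-0.48, SE 0.06), ABCF3 (-0.38, SE 0.07) and ABCF2 (845 and 721 against 367 and 416 normalized reads). These belong to subfamilies that do not act as transporters. ABCF2 lay at the 2-fold line, and was called lower with TMM (-1.01) or RLE scaling (-1.11), with edgeR and TMM (-1.01) and DESeq2 (-1.11), without shctrl replicate 2 (-1.11) and without shUSP2-AS1 replicate 2 (-1.09). Sulfotransferases went in both directions, with SULT1C2 higher (1.06, SE 0.18) and SULT2B1, which sulfates cholesterol, lower (-1.75, SE 0.17).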
